A study of Mus musculus with 2 samples.

Results

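Dlx1, Dlx2, Dlx5, Dlx6, Lhx6, Sp8 and Sp9 encode transcription factors of the embryonic forebrain, and Dlx6os1 and Dlx1as are long noncoding RNAs on the strands opposite Dlx6 and Dlx1. These 9 genes were chosen by symbol from the 55416 gene rows of a single-nucleus RNA-seq study of fetal mouse brain, and each symbol had 1 row. The study compared whole brain of wildtype mice with whole brain of mice in which Cav1, the gene of the membrane protein caveolin 1, was knocked out. There was 1 library per genotype, the fetal age in days is not given in the sources used here, and how many brains entered a library is not given either. Nuclei were released from frozen tissue and their RNA was read with droplet-based 10x 3′ chemistry, in which a unique molecular identifier (UMI) marks each captured RNA.

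The Dlx genes are homeobox genes that lie as convergently transcribed pairs, and in the ventral forebrain they act in progenitors and young neurons of the inhibitory lineages. Lhx6 is a LIM homeobox gene known for interneurons born in the medial ganglionic eminence, where it acts after the last division. Sp8 and Sp9 are zinc finger factors of the Sp family, known for neurons of the lateral and caudal eminences and for striatal neurons.

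With 1 library per genotype there was no replicate spread and no test. All intervals are 95% intervals that cover counting error only. Nuclei were kept with at least 500 detected genes and at most 5% mitochondrial UMIs, which left 6686 nuclei and 17205381 UMIs for the wildtype label, and 6680 nuclei and 19878903 UMIs for the knockout label. Below, a pair of values gives the wildtype-labelled library first and the knockout-labelled library second, unless a sentence says otherwise. The medians were 2134 and 2366 UMIs per nucleus. The barcodes of 10 kept nuclei occurred in both libraries. Cav1 itself gave 71 and 80 UMIs over all kept nuclei, 4.13 and 4.02 CPM (UMIs of a gene in every 1000000 UMIs), so the total did not separate the libraries as labelled. In the cluster of nuclei with 7 of 7 endothelial markers it gave 17 UMIs in 48 nuclei and 1 UMI in 64 nuclei. The libraries are therefore called by their labels throughout.

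The positions below are from GENCODE M39 on GRCm39. Dlx1 lies on the plus strand at chr2:71358457-71364325, and Dlx2 on the minus strand at chr2:71373752-71377102, 9.43 kb away. Dlx6 lies on the plus strand at chr6:6862989-6868568 and Dlx5 on the minus strand at chr6:6877804-6882092, a gap of 9.24 kb. Dlx6os1, on the minus strand at chr6:6749740-6871632, spans 121.89 kb and encloses all of Dlx6, but its exons share 0 bases with Dlx6 exons. Dlx1as, on the minus strand at chr2:71346798-71369624, encloses all of Dlx1, and its exons overlap 60.2% of the Dlx1 exon bases. Dlx1as also overlaps 8741 bases of Metap1d, the next gene on the plus strand. Lhx6 lies at chr2:35971964-35995601, Sp9 at chr2:73102269-73115050 and Sp8 at chr12:118810064-118816311. Whether the counting used the strand is not given in the sources used here, so UMIs of Dlx1 and Dlx1as, and intronic UMIs of Dlx6 and Dlx6os1, are uncertain in their assignment. The Dlx5 and Dlx6 pair lies 10.4 Mb from the start of Cav1 on the same chromosome.

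Start-site sequences are shown for the Dlx1 and Dlx2 pair, whose levels were highest in the same cluster in both libraries, and for the antisense RNA Dlx6os1, which gave the most UMIs. Each is 300 bases from RefSeq on GRCm38.p6, 250 before and 50 after an annotated start, 5′ to 3′ on the strand of the gene. Capitals mark TAATTA or TAATTG, core letters bound by many homeodomain proteins, found on either strand.
Dlx1, chr2:71529195-71529494, plus strand: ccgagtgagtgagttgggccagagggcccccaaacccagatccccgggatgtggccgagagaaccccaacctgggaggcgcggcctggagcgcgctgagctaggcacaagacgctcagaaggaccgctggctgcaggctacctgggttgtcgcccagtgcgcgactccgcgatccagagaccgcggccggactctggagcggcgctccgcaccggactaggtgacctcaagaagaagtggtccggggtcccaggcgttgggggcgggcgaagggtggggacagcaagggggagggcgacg
Dlx2, chr2:71546705-71547004, minus strand: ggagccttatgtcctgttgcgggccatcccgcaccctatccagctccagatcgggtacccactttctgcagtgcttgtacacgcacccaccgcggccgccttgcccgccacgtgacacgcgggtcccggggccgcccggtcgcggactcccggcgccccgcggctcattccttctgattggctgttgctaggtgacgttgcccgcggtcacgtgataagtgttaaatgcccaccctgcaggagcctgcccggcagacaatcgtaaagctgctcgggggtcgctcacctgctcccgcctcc
Dlx6os1, first start, chr6:6869484-6869783, minus strand: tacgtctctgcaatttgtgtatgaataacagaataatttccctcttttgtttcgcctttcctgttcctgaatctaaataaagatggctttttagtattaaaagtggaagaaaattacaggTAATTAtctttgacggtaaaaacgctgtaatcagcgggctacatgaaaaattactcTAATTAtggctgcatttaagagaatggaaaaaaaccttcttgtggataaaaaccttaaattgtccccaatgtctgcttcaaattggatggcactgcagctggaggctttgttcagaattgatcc
Dlx6os1, second start, chr6:6861634-6861933, minus strand: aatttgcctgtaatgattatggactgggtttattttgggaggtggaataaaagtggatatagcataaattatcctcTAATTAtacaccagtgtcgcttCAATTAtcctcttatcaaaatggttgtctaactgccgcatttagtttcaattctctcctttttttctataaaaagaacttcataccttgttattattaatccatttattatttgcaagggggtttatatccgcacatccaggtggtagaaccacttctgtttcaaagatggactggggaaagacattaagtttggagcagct
The Dlx1 and Dlx2 windows held neither motif, whereas the first Dlx6os1 window held TAATTA 2 times and the second held each motif 1 time. Of 32851 RefSeq promoter windows of the same length, 5.29% held TAATTA and 8.0% held TAATTG. The windows also differed in base composition. The GC content was 69.3% for Dlx1 and 66.3% for Dlx2, against 35.7% and 35.3% for the Dlx6os1 windows and a median of 52.7% over all windows. GGGCGG, a letter string bound by Sp family proteins, occurred in the Dlx1 and Dlx2 windows and in neither Dlx6os1 window, and in 35.7% of all windows, on either strand. The RefSeq table held 6 of the 9 genes, Lhx6, Sp8 and Sp9 among them. A match describes the letters and is not evidence of binding.

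Among the homeobox genes, Dlx1 gave 829 and 903 UMIs, 48.2 CPM (45.0 to 51.6) and 45.4 CPM (42.5 to 48.5). Dlx2 gave 299 and 308 UMIs, 17.4 and 15.5 CPM. Dlx6 gave 361 and 393 UMIs, 21.0 and 19.8 CPM. For these genes the interval of the ratio between the libraries included 1 on the linear scale. Dlx5 gave 215 and 211 UMIs, 12.5 and 10.6 CPM, and Lhx6 gave 495 and 469 UMIs, 28.8 and 23.6 CPM. Of the Sp family genes, Sp9 gave 494 and 488 UMIs, 28.7 and 24.5 CPM. Sp8 was the lowest with 105 and 114 UMIs, 6.1 and 5.73 CPM. The antisense RNAs had the most UMIs. Dlx6os1 gave 3643 and 3939 UMIs, 212 and 198 CPM, and Dlx1as gave 1197 and 1260 UMIs, 69.6 and 63.4 CPM.

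The order of the genes depended on the length it was set against. Per kilobase of exon, Dlx6os1 came first with 26.2 CPM per kb (25.4 to 27.1) and 24.6 (23.8 to 25.3). Dlx1 was next with 8.92 (8.33 to 9.55) and 8.41 (7.87 to 8.98), above Dlx6 with 7.71 (6.94 to 8.55) and 7.27 (6.57 to 8.02), and these neighbours overlapped in their intervals. Dlx1as, Dlx2, Sp9, Lhx6 and Dlx5 followed between 6.74 and 5.5 CPM per kb of exon for the wildtype label and between 6.14 and 4.60 for the knockout label, and neighbours among these 5 overlapped. Sp8 stood apart below them with 1.18 (0.962 to 1.42) and 1.10 (0.911 to 1.33). Per kilobase of the whole gene, introns included, Dlx1 was first with 8.21 (7.66 to 8.79) and 7.74 (7.24 to 8.26), and Dlx6os1 dropped to 1.74 and 1.63, below Sp9 with 2.25 and 1.92. A UMI marks a captured RNA and not a stretch of it, so with 3′ chemistry neither scale need apply. The order by CPM above is the one without a length. How intronic reads were counted, which bears on the whole-gene scale, is not given in the sources used here.

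**Figure D1:**
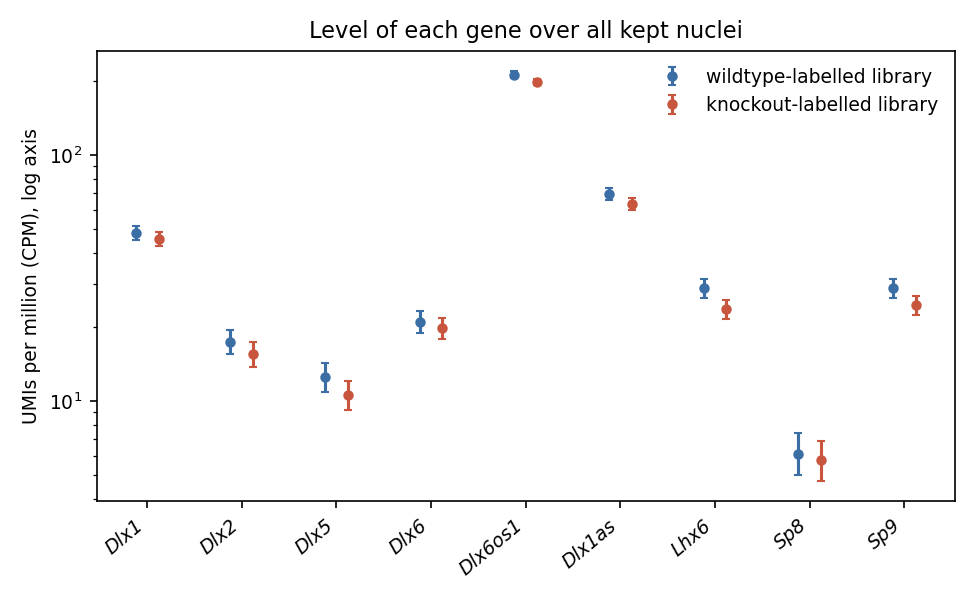
Level of each of the 9 genes in CPM (log axis) over all kept nuclei, 1 point per library with its 95% Poisson interval. Dlx6os1 stands highest at 212 and 198 CPM and Sp8 lowest at 6.1 and 5.73 CPM, and each wildtype-labelled point lies above its knockout-labelled neighbour.

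Apart from Dlx6os1, a nucleus with a member held little more than 1 of its UMIs. The mean number of UMIs per positive nucleus was 3.12 and 3.36 for Dlx6os1 and lay between 1.06 and 1.52 for the other 8 genes. A UMI of any of the 9 genes was found in 2337 and 2296 nuclei. Dlx6os1 was detected in 17.5% and 17.6% of nuclei, Dlx1as in 12.3% and 12.4%, Dlx1 in 9.06% and 9.94% and Sp8 in 1.38% and 1.62%. After each nucleus was thinned to 1000 UMIs, with 846 and 1111 shallower nuclei left out, the shares were 12.7% and 12.8% for Dlx6os1, 6.59% and 5.89% for Dlx1as, 4.74% and 4.74% for Dlx1 and 0.599% and 0.575% for Sp8.

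Nuclei that do not express a gene can still hold its UMIs, for example from free RNA. The same shares were therefore read in clusters 3, 4 and 8, which carried cortical excitatory neuron markers and should lack these genes. They held 1295 and 949 nuclei with medians of 2215 and 2376 UMIs. There Dlx6os1 was found in 4.94% and 4.85% of nuclei, Dlx1as in 6.02% and 5.27%, Dlx1 in 3.09% and 3.90% and Lhx6 in 2.70% and 1.48%. Thinned to 1000 UMIs, the shares there were 2.85% and 2.80% for Dlx6os1, 0.976% and 1.45% for Dlx1, 1.54% and 0.783% for Lhx6 and 0.244% and 0.224% for Sp8. Dlx6os1 gave 139 UMIs in 64 nuclei and 106 UMIs in 46 nuclei of these clusters. Whether the UMIs there came from free RNA, doublets or misplaced nuclei was not tested. A share in any other cluster is to be read above these values.

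Nuclei of both libraries were clustered with the 9 genes left out, which gave 25 clusters, and the 3 with the highest Dlx1 level were taken for closer description. Their high Dlx1 is thus the ground of the choice. Cluster 5 (548 and 414 nuclei) had 14 of 14 medial eminence interneuron markers and is called medial eminence interneuron-like. Cluster 12 (328 and 298 nuclei) had 11 of 14 striatal-type inhibitory neuron markers and is called striatal-type inhibitory neuron-like. Cluster 6 (228 and 218 nuclei) had 34 of 35 markers of dividing cells but 2 of 6 subpallial progenitor markers, and is called the dividing cluster. Together they held 16.5% and 13.9% of nuclei, but 71.6% and 63.8% of Dlx6os1 UMIs, 65.1% and 59.8% of Dlx6 UMIs and 57.5% and 49.8% of Dlx1 UMIs. The shares were 59.8% and 58.6% for Lhx6 and 52.1% and 47.0% for Dlx1as. Dlx1 and Dlx1as thus had most of their UMIs outside these clusters in the knockout-labelled library alone, and the remaining members in both libraries. The shares inside of these remaining members were 45.1% and 37.4% for Dlx5, 44.9% and 38.1% for Sp9, 42.8% and 41.9% for Dlx2 and 29.5% and 34.2% for Sp8.

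Dlx1 and Dlx2 were highest in the dividing cluster in both libraries. Dlx1 reached 409 CPM (353 to 471) and 360 CPM (310 to 415) there, against 233 (204 to 265) and 243 (211 to 278) in the medial eminence interneuron-like cluster and 96.3 (72.8 to 125) and 102 (77.6 to 131) in the striatal-type cluster. The 3 clusters did not overlap in Dlx1 in either library. Dlx2 had the same order of values, with 102 and 106 CPM, then 66.2 and 60.4, then 25.8 and 39.7. For Dlx2 the dividing and medial eminence interneuron-like clusters overlapped in the wildtype-labelled library, and the latter and the striatal-type cluster in the knockout-labelled library. The next cluster in the order of Dlx1, cluster 0, is the one with the lowest UMI counts and is described with the antisense ratios. The dividing cluster was not the only one with markers of dividing cells. Cluster 13, which carried dividing and radial glia markers, gave 27.0 CPM of Dlx1 over both libraries, against 383 CPM in cluster 6.

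Dlx5 and Dlx6 did not follow that order. Dlx6 lay at 121 and 122 CPM in the dividing cluster, 107 and 128 in the medial eminence interneuron-like cluster and 126 and 111 in the striatal-type cluster, all with overlapping intervals. Dlx5 lay between 44.7 and 55.3 CPM over the 3 clusters for the wildtype label and between 31.1 and 52.1 for the knockout label, with overlapping intervals as well. In cluster 17 (156 and 113 nuclei), a second striatal-type inhibitory neuron-like cluster with 9 of 14 markers, Dlx5 gave 24.7 and 30.3 CPM and Dlx1 22.4 and 27.3.

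Lhx6 had the highest share of its UMIs in a single cluster among the 9 genes. The medial eminence interneuron-like cluster held 51.3% and 53.3% of its UMIs, at 259 CPM (228 to 292) and 296 CPM (260 to 335). The dividing cluster had 55.3 (36.1 to 81.1) and 32.9 (19.2 to 52.6), and the striatal-type cluster 27.5 (15.7 to 44.7) and 13.8 (5.96 to 27.2). In the cortical excitatory clusters Lhx6 gave 13.4 and 6.18 CPM, a level that the knockout-labelled interval of the striatal-type cluster includes. Lhx6 was found in 30.1% and 36.5% of nuclei of the medial eminence interneuron-like cluster (median 1664 and 1851 UMIs), or 20.7% and 25.7% after thinning.

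Dlx6os1 was high in all 3 clusters, with 1409 and 1443 CPM in the medial eminence interneuron-like, 1164 and 1106 in the dividing and 1163 and 1250 in the striatal-type cluster. Dlx1as, in contrast, gave 103 and 114 CPM in the striatal-type cluster against 422 and 407 in the medial eminence interneuron-like cluster. Sp9 was of like level in the 3 clusters, at 119 and 101, 113 and 77.4, and 89.4 and 105 CPM in the order medial eminence interneuron-like, dividing and striatal-type. Outside them Sp9 gave 49.2 CPM (32.9 to 70.6) and 48.7 CPM (34.3 to 67.2) in the low-UMI cluster 0. It gave 41.9 CPM (29.0 to 58.5) and 40.2 CPM (26.2 to 58.9) in cluster 15, which had 5 of 6 thalamic-type neuron markers, against 12.1 and 10.8 in the cortical excitatory clusters. Dlx1 in cluster 15 was 12.3 and 13.9 CPM, with intervals that include the cortical levels of 14.6 and 18.5.

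Sp8 rested on few UMIs. In cluster 12 it gave 7 and 21 UMIs, 12.0 and 36.3 CPM, a log2 ratio of 1.59 (0.30 to 3.07). In cluster 5 it gave 20 and 9 UMIs, a log2 ratio of −0.93 (−2.25 to 0.27). The cluster with the highest Sp8 level thus differed between the libraries, cluster 5 in one and cluster 12 in the other, on few UMIs. Cluster 10 gave 19 Sp8 UMIs in each library, 18.1% and 16.7% of all Sp8 UMIs. Its levels were 19.6 and 10.3 CPM, the first close to the 20.4 CPM of cluster 5 for the wildtype label. Cluster 17 had 0 Sp8 UMIs in both libraries, where the intervals reach 8.28 and 11.2 CPM.

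The make-up of the member UMIs separated the clusters in part. Dlx6os1 made up 52.5% and 52.7% of all UMIs of the 9 genes in the medial eminence interneuron-like cluster, 49.6% and 50.1% in the dividing cluster and 68.9% and 69.3% in the striatal-type cluster. Dlx1 made up 17.4% and 16.3% in the dividing cluster, 8.69% and 8.86% in the medial eminence interneuron-like cluster and 5.71% and 5.65% in the striatal-type cluster. For these shares the libraries differed by less than their intervals, while the dividing and the striatal-type cluster did not overlap. The medial eminence interneuron-like and dividing clusters overlapped in the Dlx6os1 share in both libraries, but not in the Dlx1 share. In the cortical excitatory clusters the Dlx6os1 share was 32.6% and 33.3%.

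**Figure D2:**
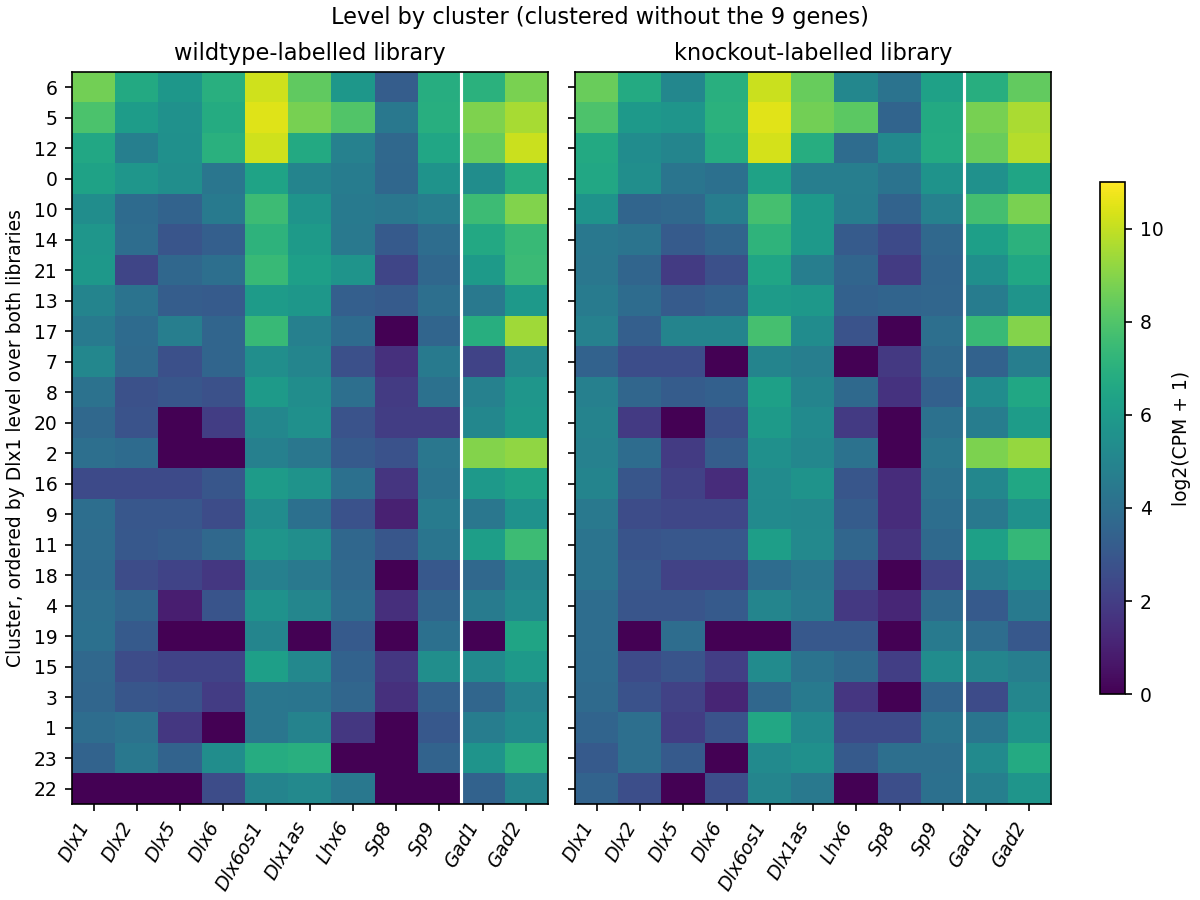
Level of the 9 genes and of Gad1 and Gad2, which encode the enzymes that make the transmitter GABA, as log2(CPM + 1) in each cluster with at least 20 nuclei per library (rows, ordered by Dlx1 over both libraries). Clusters 6, 5 and 12 head both panels, Dlx6os1 is the brightest column in them, and Lhx6 is bright in cluster 5.

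The genes whose level followed the members over clusters were read as Pearson's r of log2(CPM + 1) over 48 points, 24 clusters in 2 libraries, which share depth and free RNA. Values are descriptions. Among the members themselves, Dlx6 and Dlx6os1 had r = 0.880, Dlx1 and Sp9 0.803, Dlx1 and Dlx2 0.796, and Dlx1 and Dlx1as 0.606. Among 10008 other genes, B020031H02Rik was first for Dlx6 (0.843) and Dlx6os1 (0.883), Gm45680 for Dlx1 (0.698) and Sp9 (0.647), Ube2c for Dlx2 (0.798) and Sox2 for Sp8 (0.632). For Dlx1as the 3 most alike were Sox1ot (0.793), the overlapping gene Metap1d (0.781) and Cdca7 (0.768).

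The antisense RNAs outnumbered their sense partners by ratios that were alike in both libraries. Dlx6os1 gave 10.1 UMIs per Dlx6 UMI (9.05 to 11.3) and 10.0 (9.03 to 11.1). Dlx1as gave 1.44 per Dlx1 UMI (1.32 to 1.58) and 1.40 (1.28 to 1.52). Another noncoding RNA listed at the locus, Dlx6os2, gave 62 and 88 UMIs and is not counted with Dlx6os1.

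Within nuclei the pairs differed in how often both RNAs were found. Of the nuclei with Dlx6, 227 of 309 (73.5%) and 238 of 314 (75.8%) also held Dlx6os1, against 17.5% and 17.6% of all nuclei. In the striatal-type cluster these shares were 93.3% and 89.8%, where 67.4% and 68.5% of all its nuclei held Dlx6os1. In the cortical excitatory clusters they were 46.2% and 42.9%, 6 nuclei each, where 4.94% and 4.85% of all nuclei held it. Of the nuclei with Dlx1, 37.3% and 36.7% also held Dlx1as, against 12.3% and 12.4% of all nuclei. At 1000 UMIs per nucleus the shares were 61.8% and 69.8% for the Dlx6 pair and 22.7% and 25.4% for the Dlx1 pair. In the other direction, with all UMIs, 19.5% and 20.3% of nuclei with Dlx6os1 held Dlx6. Of nuclei with Dlx1as, 27.5% and 29.4% held Dlx1.

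The Dlx1as to Dlx1 ratio varied with the kind of nucleus. It was 1.81 (1.54 to 2.14) and 1.68 (1.41 to 2.0) in the medial eminence interneuron-like cluster, against 0.776 (0.622 to 0.966) and 0.978 (0.793 to 1.21) in the dividing cluster, with no overlap in either library. The striatal-type cluster lay between them at 1.07 (0.732 to 1.57) and 1.12 (0.775 to 1.62), with intervals that overlapped both of them in each library. In the cortical excitatory clusters, read above as background, the ratio was 2.06 (1.44 to 2.99) and 1.33 (0.903 to 1.98), which overlaps the medial eminence interneuron-like cluster. The dividing cluster lay below this background for the wildtype label and overlapped it for the knockout label. Cluster 13, which had 35 of 35 dividing and 9 of 11 radial glia markers, gave 1.83 (1.26 to 2.68) and 2.50 (1.56 to 4.11), above the dividing cluster 6 in both libraries. Between the dividing and postmitotic classes defined below the libraries did not show the same pattern. In postmitotic nuclei the ratio was 1.68 (1.47 to 1.93) and 1.36 (1.20 to 1.55). In nuclei with at least 3 of 35 dividing genes it was 1.10 (0.957 to 1.27) and 1.42 (1.24 to 1.63), and in nuclei with at least 8 it was 0.930 (0.773 to 1.12) and 1.22 (1.01 to 1.48). The classes were apart for the wildtype label and overlapped for the knockout label at both thresholds, and the difference between the libraries was not tested. The Dlx6os1 to Dlx6 ratio kept within 9.08 to 13.2 over the 3 clusters, and all these intervals overlapped. On fewer UMIs it was 15.0 and 7.0 in cluster 17, 8.17 and 6.64 in cluster 13 and 8.69 and 6.62 in the cortical excitatory clusters.

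The lowest Dlx1as to Dlx1 ratios came from barcodes poor in UMIs. Cluster 0, unnamed, had medians of 740.0 and 706.0 UMIs against 2267 and 2627 in the other clusters. Its size was 9.47% and 14.6% of the nuclei, and ribosomal protein genes, whose RNA is mostly cytoplasmic, took 10.6% and 10.1% of its UMIs against 2.05% and 1.98% elsewhere. There the Dlx1as to Dlx1 ratio was 0.383 (0.209 to 0.672) and 0.260 (0.148 to 0.436), apart from the ratio over all nuclei. The Dlx6os1 to Dlx6 ratio was 4.36 (2.23 to 9.32) and 5.08 (2.71 to 10.4), which overlaps that over all nuclei. Dlx2 gave 54.3 and 42.1 CPM in cluster 0, with intervals that overlap those of the striatal-type cluster. Of the nuclei of cluster 0 with Dlx6, 0 of 11 and 2 of 12 held Dlx6os1. Barcodes under 500 genes gave ratios of 0.390 and 0.268 for the Dlx1 pair, and 3.36 (2.30 to 5.02) and 2.18 (1.58 to 3.05) for the Dlx6 pair. The part of these barcodes in other results was not tested, but with cluster 0 left out the overall ratio was 1.51 and 1.5 for the Dlx1 pair and 10.3 and 10.2 for the Dlx6 pair.

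**Figure D3:**
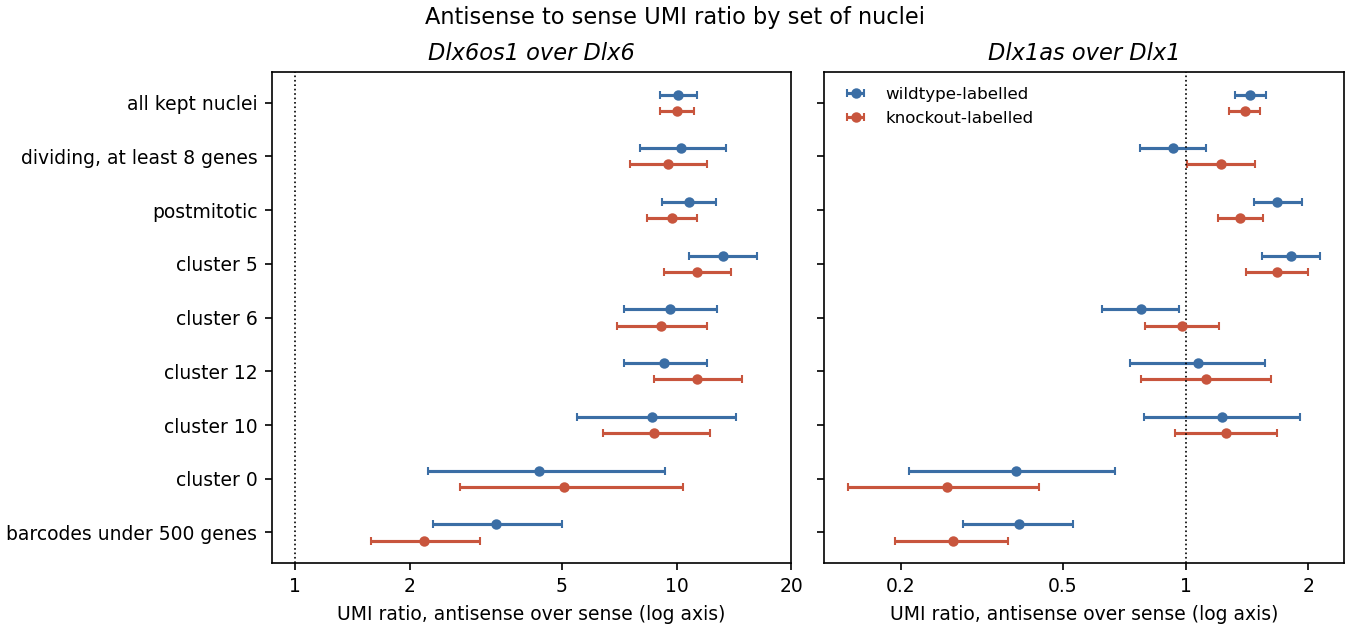
UMI ratio of Dlx6os1 over Dlx6 (left) and of Dlx1as over Dlx1 (right) on a log axis, by set of nuclei and library, with 95% exact intervals. Among the sets plotted, the Dlx6 pair lies between 8.62 and 13.2 outside cluster 0 and the barcodes under 500 genes, while the Dlx1 pair runs from 0.260 in cluster 0 to 1.81 in cluster 5.

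Dividing nuclei were called from 35 cell cycle genes, none of them a member, by a UMI of at least 3 different ones. Postmitotic nuclei had at most 1 of these genes and at least 3 of 15 general neuron genes. The wildtype-labelled library had 1332 dividing and 4005 postmitotic nuclei, with medians of 2553 and 2056 UMIs. The knockout-labelled library had 1252 and 4088, with medians of 3087 and 2208 UMIs. Deeper nuclei reach 3 genes more easily, and 425 and 398 of the dividing nuclei had exactly 3. Both classes hold all brain regions, so a level averages over many nuclei that use none of the 9 genes.

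Of the 8 members with at least 100 UMIs in these classes, 0 differed by 2-fold or more in both libraries, against 3.85% of 12152 genes. Sp8 had too few UMIs to be counted. Of the homeobox genes, Dlx1 gave 78.1 CPM in dividing and 37.9 in postmitotic nuclei under the wildtype label, a log2 ratio of 1.04 (0.83 to 1.26). Under the knockout label it gave 60.5 and 39.8, a log2 ratio of 0.61 (0.40 to 0.82). The difference between these ratios was not tested. Dlx2 had log2 ratios of 0.55 and 0.62, Dlx1as 0.43 and 0.67, Dlx6 0.53 and 0.33 and Dlx6os1 0.37 and 0.34, and for each of them the interval lay above 0. Lhx6 had the opposite sign, with 23.6 CPM in dividing and 33.2 in postmitotic nuclei in the first library and 18.6 and 27.8 in the other, log2 ratios of −0.49 (−0.81 to −0.18) and −0.58 (−0.91 to −0.26). Dlx5, at 0.06 and −0.28, and Sp9, at −0.01 and −0.06, had intervals that included 0.

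The comparison was repeated at equal depth. With every nucleus thinned to 1000 UMIs before the classes were called, 644 and 555 nuclei were dividing, and Dlx1 gave 151 against 40.9 CPM and 164 against 46.5 CPM. The log2 ratios were then 1.88 (1.5 to 2.25) and 1.82 (1.44 to 2.19), so that the libraries overlapped. Dlx2 had 1.14 (0.39 to 1.85) and 1.99 (1.34 to 2.62), on 23 and 34 UMIs in the dividing nuclei. Dlx1 and Dlx2 were thus past 2-fold in both libraries at this depth, Dlx2 on fewer than 100 UMIs. Of the 6 members with at least 100 UMIs Dlx1 alone was, against 12.9% of 7739 genes, and 5.14% of the 7739 were higher in dividing nuclei. Lhx6 was below 0 at −0.89 (−1.84 to −0.08) and −0.77 (−1.75 to 0.08), the latter with an interval that included 0. Thinning changed the classes as well as the depth, since fewer nuclei reached 3 dividing genes. With all UMIs and at least 5 dividing genes, Dlx1 had log2 ratios of 1.37 (1.15 to 1.60) and 0.83 (0.60 to 1.06). With at least 8 it had 1.48 (1.24 to 1.72) and 0.93 (0.68 to 1.18). The libraries did not overlap at either threshold, and the parts of depth and class were not tested.

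In a narrower comparison, nuclei with at least 8 dividing genes were set against postmitotic nuclei inside clusters 5, 6 and 12 alone, a setting chosen after the data were seen. These were 160 dividing and 626 postmitotic nuclei under the wildtype label, with 164 and 531 under the knockout label. The classes sat in different clusters: cluster 6 held 99.4% and 97.6% of the dividing nuclei, and all but 7 of the postmitotic nuclei of each library lay in clusters 5 and 12. The values below are thus in the main those of cluster 6 against clusters 5 and 12. Lhx6 gave 54.6 CPM (33.3 to 84.3) in dividing and 196 (171 to 225) in postmitotic nuclei, and 32.3 (17.7 to 54.2) against 183 (157 to 211), log2 ratios of −1.85 (−2.59 to −1.18) and −2.50 (−3.40 to −1.72). It was the single member past 2-fold in both libraries, where 11.9% of 3001 genes were and 7.10% of the 3001 were lower in dividing nuclei. Of the 9 members, 6 had enough UMIs to be counted. Dlx1 gave 398 against 180 CPM and 353 against 186, log2 ratios of 1.14 (0.82 to 1.46) and 0.93 (0.61 to 1.24). Since Dlx1 chose the clusters, its value here is a description.

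The antisense RNAs and Dlx6 were not higher in dividing nuclei in this setting. Dlx6os1, above 0 over all clusters, was at −0.16 (−0.33 to −0.00) and −0.25 (−0.41 to −0.09). Dlx6 was at 0.07 and −0.03 and Dlx1as at −0.10 and 0.15, with intervals that included 0. Gad1 gave 131 against 438 CPM and 99.2 against 416, and Gad2 gave 420 against 913 and 341 against 786. Over these clusters Dlx1 was thus higher in the dividing nuclei while Lhx6, Gad1 and Gad2 were lower there, in both libraries. Gad1 and Gad2 are on both marker lists that named the medial eminence interneuron-like and striatal-type clusters. They were also not left out of the clustering as the members were, so their values here are descriptions too. The median depths of dividing and postmitotic nuclei were 2130 and 1582 UMIs for the wildtype label and 2488 and 1790 for the knockout label.

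**Figure D4:**
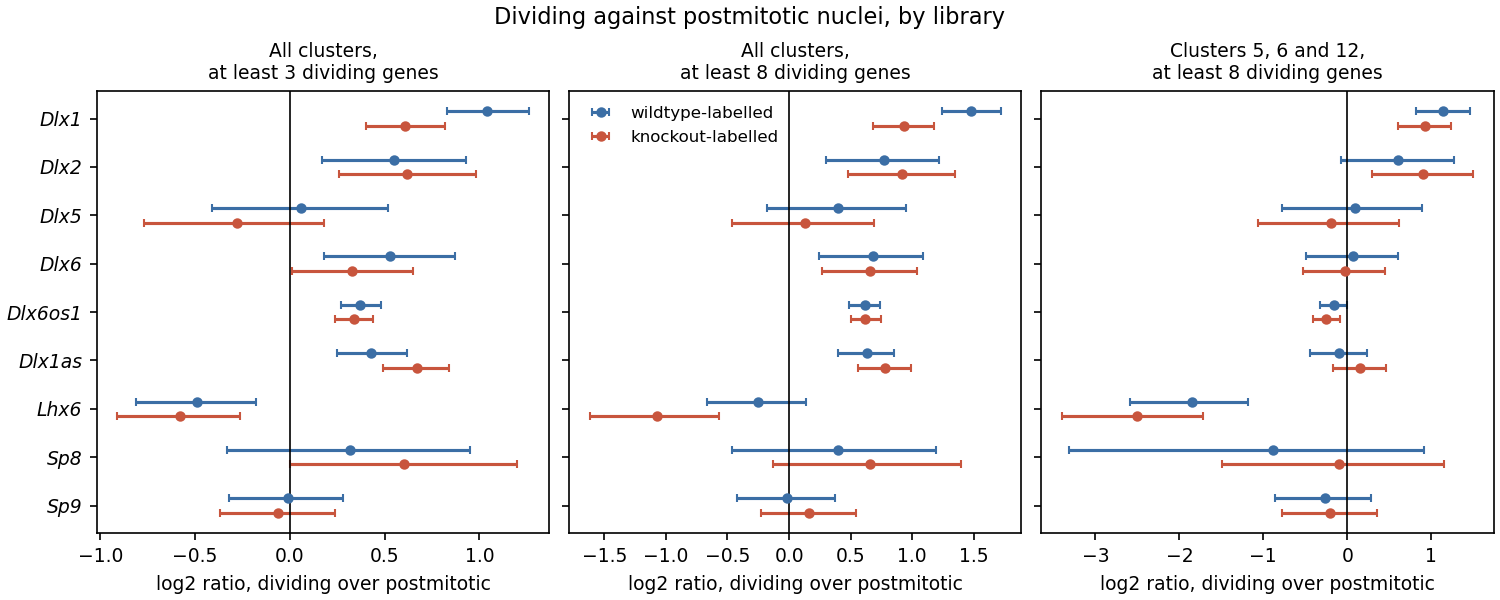
Log2 ratio of CPM in dividing over postmitotic nuclei for each gene and library, with 95% exact intervals, for 3 definitions of the classes. Dlx1 lies to the right of 0 in all panels and Lhx6 to the left, farthest in clusters 5, 6 and 12, where it reaches −1.85 and −2.50. In the middle panel, at least 8 dividing genes over all clusters, Lhx6 is at −0.25 (−0.67 to 0.14) for the wildtype label, an interval that includes 0. For the knockout label it is at −1.07 (−1.62 to −0.57) there.

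Members were also read in the same nuclei, thinned to 1000 UMIs. Of nuclei with Dlx1, 50.2% (44.1 to 56.2) and 49.6% (43.4 to 55.8) also held Dlx6os1, against 12.7% and 12.8% of all nuclei. With Lhx6 these shares were 55.4% and 62.3%, with Sp9 39.2% and 42.3%, and with Sp8 34.3% and 34.4%. Each of these lay above the share over all nuclei, outside its interval. Gad2 was found in 49.5% and 44.5% of nuclei with Dlx6os1, against 16.1% and 15.1% of all nuclei. Lhx6 and Sp8, known for neurons of different eminences, were found together in 1 of 166 and 0 of 146 nuclei with Lhx6. The exact intervals reach 3.31% and 2.49%, and Sp8 was found in 0.599% and 0.575% of all nuclei, so that at this depth neither an excess nor a lack was detectable. Of nuclei with Dlx2, 10.3% (5.46 to 17.4) and 21.2% (14.1 to 29.9) also held Dlx1, against 4.74% and 4.74% of all nuclei.

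Between the libraries, 0 of the 9 members had a level in one library at least 25% above that in the other, against 12.6% of 15528 genes with at least 100 UMIs. The log2 ratios of the knockout-labelled over the wildtype-labelled library ran from −0.29 to −0.09 with a median of −0.13, against a median of −0.01 over all genes. All 9 were below 0 over all kept nuclei, as were 53.5% of all genes, but with nuclei thinned to 1000 UMIs Dlx1, Dlx2 and Dlx6 were above 0 and with a minimum of 200 genes Sp8 was. With the highest doublet scores left out 8 were below 0 and the highest was at −0.00. Lhx6 had the lowest ratio, −0.29 (−0.47 to −0.10), followed by Dlx5 with −0.24 (−0.52 to 0.05) and Sp9 with −0.23 (−0.41 to −0.04). Dlx6os1 had −0.10 (−0.16 to −0.03) and Dlx1as −0.13 (−0.25 to −0.02). The intervals of Dlx1, Dlx2, Dlx6 and Sp8 included 0. Of all genes, 20.8% had a ratio below the median of the members.

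Inside clusters 5, 6 and 12 together, the ratios lay on both sides of 0. Dlx1 gave 235 and 232 CPM, a log2 ratio of −0.02 (−0.21 to 0.17), and Dlx6os1 gave 1282 and 1296, 0.02 (−0.06 to 0.10). Lhx6 gave 146 and 142 CPM, −0.04 (−0.28 to 0.20). The ratios of the 9 members ran from −0.23 for Dlx5 to 0.40 for Sp8 with a median of −0.01, and all 9 intervals included 0. Of the 8 members with at least 100 UMIs there, 0 were past the same 25%, against 15.2% of 7207 genes. The share of nuclei in these clusters, 16.5% and 13.9%, and the levels over all nuclei thus stood lower in the knockout-labelled library, while the levels inside the clusters did not separate the libraries. The unnamed low-UMI cluster 0, at 9.47% and 14.6%, had the reverse order. So had cluster 10, the next in the order of Dlx1, with 5.03% and 8.62% of nuclei. It held 4.83% and 9.97% of Dlx1 UMIs and 4.97% and 9.98% of Dlx6os1 UMIs. The part of clusters 0 and 10 in the result was not tested. With 1 library per genotype, the genotype and the library cannot be told apart.

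**Figure D5:**
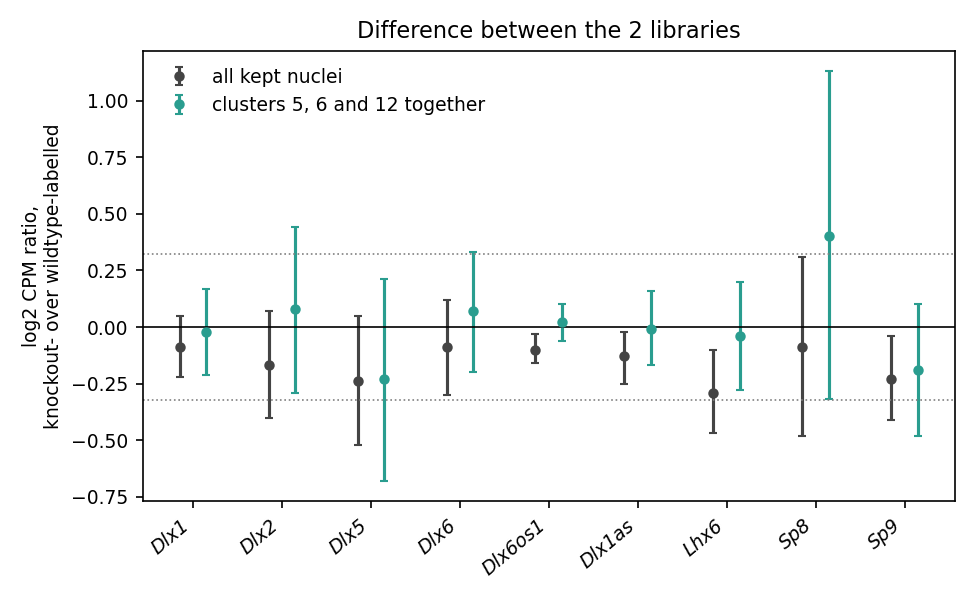
Log2 ratio of CPM in the knockout-labelled over the wildtype-labelled library for each gene, over all kept nuclei and inside clusters 5, 6 and 12, with 95% exact intervals and dotted lines where one level is 25% above the other. Over all nuclei the points lie between −0.29 and −0.09, and inside the clusters between −0.23 and 0.40, where each interval crosses 0.

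Of 42 listed partners of the same forebrain lineages, 37 had at least 100 UMIs, and 5 were higher and 5 lower in the knockout-labelled library by the same 25%, where 8.02% and 4.60% of all genes were. The highest were Lhx8 and Nkx2-1, factors of the medial eminence, preoptic area and, for Nkx2-1, the hypothalamus. Lhx8 gave 92 and 206 UMIs, 5.35 and 10.4 CPM, a log2 ratio of 0.95 (0.59 to 1.33), and Nkx2-1 gave 115 and 239 UMIs, 6.68 and 12.0 CPM, 0.85 (0.52 to 1.18). Sst, which encodes the peptide somatostatin, followed with 0.48 and Slc32a1, the vesicular GABA transporter, with 0.45. Among the lowest were Ackr3, a chemokine receptor of migrating interneurons, with −0.47, and Nr2f1, a nuclear receptor gene, with −0.40. The median over the 37 was −0.04. Over all kept nuclei Nkx2-1, known to act upstream of Lhx6 in the medial eminence, and Lhx8 thus stood on the opposite side of 0 from Lhx6. Inside clusters 5, 6 and 12 Lhx6 was at −0.04 (−0.28 to 0.20), and Nkx2-1 and Lhx8 were not compared between the libraries there. Over all kept nuclei, Gad1 and Gad2 were at −0.04 (−0.13 to 0.06) and −0.16 (−0.22 to −0.09). The other Dlx genes were all but undetected, Dlx3 with 2 and 0 UMIs and Dlx4 with 0 and 0.

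Of 13 listed genomic neighbours, 12 had at least 100 UMIs, 0 were past that 25% between the libraries, and their median was −0.01. Metap1d, which overlaps Dlx1as, gave 94.7 and 94.8 CPM. Between dividing and postmitotic nuclei, 1 of 12 neighbours and 1 of 32 partners with enough UMIs were 2-fold or more higher in both libraries, where 3.84% of all genes were, and 0 were lower, where 0.00823% were. The neighbour was Hat1, a histone acetyltransferase gene, with log2 ratios of 1.46 and 1.19, and the partner was Pax6, a factor of radial glia, with 1.28 and 1.20. Sox6 followed with 0.93 and 0.90 and Metap1d with 0.97 and 0.75. Among the lowest were Lhx5 (−0.85 and −0.58), Sst (−0.73 and −0.65) and Isl1 (−0.47 and −0.73). Isl1 is a LIM homeobox gene of striatal and other neurons.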

How the data were processed

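Single-nucleus RNA-seq was analysed for 1 library of wildtype and 1 of Cav1 knockout whole fetal mouse brain. Per the file headers, the deposited values are UMI counts from Cell Ranger 6.1.1, not normalized, while the submitters' processing notes name Cell Ranger 3.0.1, STAR and GRCm39. The annotation and the intron and strand settings are not given in the sources used here. The members and all gene lists were chosen with earlier results of these data known. No per-sample column was left unused (0).

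Nuclei with at least 500 genes and at most 5% mitochondrial UMIs were kept, and 2969 and 3904 barcodes (wildtype label, knockout label) fell under the gene minimum and 108 and 227 over the mitochondrial limit. UMIs were summed per library, class or cluster and given as CPM with exact Poisson intervals. Ratios carry exact conditional binomial (Clopper-Pearson) intervals, and shares exact binomial ones. Genes entered a count of folds with at least 100 UMIs in the nuclei compared. Intervals cover counting error only. Equal depth was set by drawing 1000 UMIs per nucleus without replacement. The ratio and interval code was tested on simulated data. With its own threshold Scrublet called 1 doublet in each library (0.0150%), too few for the caller to have worked, so doublets were kept, and leaving out the 8% with the highest scores was an alternative.

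Clustering used 2887 variable genes without the 9 members, 30 principal components, 15 neighbours and Leiden resolution 1 in scanpy 1.11.5, with no correction between libraries. A cluster was named from a list when at least 3 of its markers were 2-fold above the other clusters and 1.5-fold within each library. The names are rebuilt here and are not the authors' annotation. The text names all members, the 4 highest and 4 lowest related genes per comparison (by the mean of both libraries for the dividing comparison), and the 3 genes most alike each member, of which the first or shared ones are printed. Some genes that this rule selects are not reported here. Other genes named beside these were chosen after their values were seen. Alternatives were other gene minimums, a mitochondrial limit of 1%, another scaling, thinning, doublet removal, other class thresholds and other resolutions. Start-site sequences are from RefSeq (GRCm38.p6), positions from GENCODE M39 (GRCm39), with numpy 2.4.6, scipy 1.17.1, pandas 2.3.3 and matplotlib 3.10.9.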

Additional observations from a re-analysis of the deposited data

Results flagged for a closer look

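All 9 genes gave more UMIs than a count of 0 allows in the barcodes under 500 genes, which the comparisons between the libraries left out, except under the alternative minimum of 200 genes. These were 2969 wildtype-labelled and 3904 knockout-labelled barcodes, and the limit that a count of 0 allows is 1.81 and 1.32 CPM. Dlx1 gave 92.7 and 83.7 CPM there, Dlx2 43.3 and 36.6, Dlx5 24.1 and 26.9, and Dlx6 21.7 and 24.7. The antisense RNAs gave 72.8 and 53.8 CPM for Dlx6os1 and 36.1 and 22.5 for Dlx1as. Lhx6 gave 26.5 and 25.6 CPM, Sp8 5.42 and 9.69, and Sp9 46.3 and 33.9. Dlx1 was higher there than in the kept nuclei (48.2 and 45.4 CPM), while Dlx6os1 was lower (212 and 198 CPM in the kept nuclei). Ribosomal protein genes took 9.75% and 10.5% of the UMIs of these barcodes, against 2.05% and 1.98% in the kept nuclei outside cluster 0, and their part in these levels was not tested.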

How the results depend on the processing

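No paired analysis was possible because each genotype had 1 library and the labels give no replicate numbers, and for the same reason no library could be left out. The count of members with a level 25% or more apart between the libraries was 0 under all 7 alternatives, and the partner count was 10 in the main setting and 10 to 12 under them. The count of members past 2-fold between dividing and postmitotic nuclei in both libraries was 0 in the main setting, 2 (Dlx1 and Dlx2) after thinning to 1000 UMIs, and 1 (Lhx6) with at least 8 dividing genes inside clusters 5, 6 and 12. In that last setting the log2 ratio of Dlx1as was −0.10 in the wildtype-labelled library, that of Dlx6 −0.03 in the knockout-labelled library, and that of Dlx6os1 −0.16 and −0.25, against values above 0 over all clusters. The Dlx1as to Dlx1 ratio was 1.28 and 1.20 with a minimum of 200 genes, and 1.52 in the knockout-labelled library with a minimum of 1000. The cause of these shifts was not tested. Among single-gene ratios between the libraries, 59 values stayed within the main interval and 4 moved. Of the 126 between dividing and postmitotic nuclei, 83 stayed within the main interval, 39 moved and the 4 given above reversed in sign. With these 4, 15 had the other sign, the rest being 11 whose interval in the main setting included 0 (Dlx5, Sp8 and Sp9). The class threshold of at least 8 genes, the comparison inside the clusters and the removal of cluster 0 were chosen after seeing the data. Depth limits Sp8 and Dlx5 most, with 105 to 215 UMIs per library.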
